A study of Rattus norvegicus with 30 samples.

Results

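The 10 genes described here belong to the prostaglandin and lipoxygenase pathway: the phospholipases Pla2g2a and Pla2g4a, the cyclooxygenases Ptgs1 and Ptgs2, the prostanoid synthases Ptges, Ptgis and Ptgds, the prostaglandin-degrading enzyme Hpgd, and the lipoxygenases Alox15 and Alox5. They were chosen by symbol, with earlier results of these data known. Each was found through its Entrez gene number among the 17322 genes of the deposited expression table, so 10 of 17322 genes are described.

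RNA sequencing measured polyadenylated RNA in testes of Wistar rats and in cultured pieces of prepubertal testis. Testes taken directly from animals had ages, in days postpartum (dpp), of 8.5 dpp, 14.5 dpp, 24.5 dpp, 30.5 dpp, 36.5 dpp and 53.5 dpp, with 3 testes at each age except 14.5 dpp, where 2 were usable. The cultured groups, D6, D16, D22 and D28, are named by their days on agarose at the boundary of gas and liquid, and each had 3 libraries, each a pool of 12 explants from at least 3 males. All explants came from 8.5 dpp testes cut into 6 fragments, all groups shared the strain, and every cultured group shared one medium, αMEM with serum replacement, retinol and vitamin E. In total age D6 corresponds to 14.5 dpp, D16 to 24.5 dpp, D22 to 30.5 dpp and D28 to 36.5 dpp. A necrotic centre was removed from the explants before RNA was taken, which limits them as a model of the whole organ. Levels are FPKM, a count of sequenced fragments divided by transcript length and by the library's mapped total, and the depth of 28 libraries relative to replicate 1 of 8.5 dpp, the reference, was estimated roughly from their lowest values and ran from 0.785 to 1.46. Between 12520 and 13563 genes had a value above 0 in a library.

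Arachidonic acid is released from membrane phospholipids by phospholipases A2, and cyclooxygenases turn it into an unstable prostaglandin from which separate synthases make prostaglandin E, prostaglandin D or prostacyclin. Lipoxygenases use the same fatty acid for leukotrienes, lipoxins and hydroxy fatty acids. In the testis, interstitial macrophages, Leydig cells and Sertoli cells are known producers of prostaglandins, and inducible cyclooxygenase is a classical gene of inflamed tissue.

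Compared with the 14.5 dpp testis, RNA of the inducible cyclooxygenase Ptgs2 was higher and that of the lipoxygenase Alox15 lower at all 4 culture times. Alox15 was also low in testes from 24.5 dpp on, at most 0.575 FPKM, and could not be tested against them. Ptgs2 was low throughout and was not called at D28 against the explanted 8.5 dpp tissue. RNA of the secreted phospholipase Pla2g2a was called higher than at 14.5 dpp at D22 and D28 but not at D6 or D16. Those calls were lost without either 14.5 dpp testis, although the size of the differences did not change. Hpgd and Ptgds were called in no comparison of the values as deposited. Differences were tested with limma on log2(FPKM + 1) with Benjamini-Hochberg adjustment over all genes tested. A gene was tested if its median reached 0.5 FPKM in at least 1 group of the fit, and called higher or lower if its adjusted p was no more than 0.05 and the medians differed at least by a factor of 2. Against 14.5 dpp, Ptgs2 and Pla2g2a reached that median only through cultured groups and Alox15 only through the testis. Differences on this scale understate the fold of a gene with a low level. An exact 0 in the table can be a failed estimate, since the housekeeping genes Ppia, Hprt1, Rps18 and Rplp2, 4 genes chosen after their values were seen, were listed at 0 in all libraries, as were 1973 genes in all. Bulk samples cannot tell fewer cells of a type from less RNA per cell.

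The first question was how culture differed from the 14.5 dpp testis. At D6, 7 of the 10 genes were tested, 1 was higher and 1 lower, against 5.57% of all tested genes higher and 2.37% lower. At D16, 9 were tested, with 3 higher (6.87% of all tested genes) and 2 lower (6.14%). D22 also had 9 tested, 3 higher (background 7.76%) and 2 lower (5.99%), and D28 had 9 tested, 3 higher (8.40%) and 1 lower (6.88%). These counts rest partly on the filter: Pla2g2a, Ptgs1, Ptgs2 and Ptgds reached it only through cultured groups and Alox15 only through the 14.5 dpp testis, so most of them had to differ in order to be tested. The group that passed was not always the one compared: Ptgds, listed at 0 in all libraries of D16 and 14.5 dpp, was tested there through D22 (median 0.525 FPKM). At all 4 times the share called higher stood above the background, and these filtered genes made up most or all of it. Since the genes were also chosen with earlier results known, these shares cannot show that the pathway as a set differed. The median log2 difference of the genes tested was 0.18, 0.00, 0.40 and 0.37 at D6, D16, D22 and D28, beside −0.04, −0.05, −0.05 and −0.08 for all genes. The D16 median of 0.00 is the value of Ptgds itself, a gene listed at 0 on both sides and so no measured difference. The 4 comparisons share the same pair of 14.5 dpp testes, and D16, D22 and D28 were fitted together.

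The second question was how cultured tissue differed from testis of the same total age. Against 24.5 dpp, D16 had 7 genes tested, 3 higher where 25.3% of all tested genes were higher, and 1 lower where 18.3% were lower. Against 30.5 dpp, D22 had 8 tested, 3 higher (42.1% of all tested genes) and 2 lower (22.9%). Against 36.5 dpp, D28 had 8 tested, 4 higher (46.7%) and 1 lower (23.6%), so at the later ages the share called was close to or below that of all genes. Ptgs2, Pla2g2a and Pla2g4a passed the filter only through the cultured group in all 3 comparisons, as did Ptgs1 against 24.5 and 36.5 dpp and Ptgds against 30.5 dpp, whereas Alox5 passed only through the testis at 30.5 and 36.5 dpp. The median log2 difference was 0.22, 0.38 and 0.30 for the genes tested and 0.12, 0.51 and 0.64 for all genes.

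Scaling each library by its median ratio over genes present in all libraries moved the median of all genes by −0.14 at D16 against 24.5 dpp, −0.58 at D22 against 30.5 dpp and −0.76 at D28 against 36.5 dpp. With scaling, the share of calls that were higher went from 64.8% to 46.0% at D22 and from 66.4% to 44.9% at D28. With scaling, 3 of the 10 genes were higher and 2 lower at D16 (7 tested, 21.4% of all tested genes higher and 21.0% lower), 3 higher and 2 lower at D22 (7 tested, 27.8% and 32.7%) and 3 higher and 3 lower at D28 (8 tested, 29.4% and 36.0%). The scaled median of the genes tested was 0.14, −0.62 and −0.08, beside −0.02, −0.07 and −0.11 for all genes, so the positive median as deposited was not kept at D28. At D22 the set of genes changed as well, since Ptgds (0.91 as deposited) was not tested with scaling. The middle value of the 7 genes left, that of Hpgd, was already −0.15 as deposited. Differences from age-matched testis are given as deposited, with scaled values beside them.

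The third question was what changed from the tissue explanted. Against 8.5 dpp, D6 had 9 genes tested, 3 higher (9.90% of all tested genes) and 1 lower (6.23%), and D28 had 9 tested, 3 higher (13.6%) and 1 lower (10.5%). D28 against D6 had 9 tested, with 1 higher (3.12%) and 0 lower (2.79%). Here Pla2g2a, Ptgs1, Ptgs2 and Ptgds passed the filter only through cultured tissue and Alox15 only through the 8.5 dpp testis, so shares above the background rest partly on the filter. The median log2 difference of the genes tested was 0.18, 0.36 and 0.15, beside 0.06, 0.04 and −0.04 for all genes. These comparisons come from 1 fit and share the 8.5 dpp, D6 or D28 libraries. Scaling moved the median of all genes by −0.12 at D6 against 8.5 dpp, where the share of calls that were higher went from 61.4% to 49.1%. With scaling, 8 of the 10 genes were tested: 2 were higher and 1 lower at D6 against 8.5 dpp (7.93% and 8.24% of all tested genes), 3 higher and 1 lower at D28 against 8.5 dpp (12.0% and 12.4%) and 1 higher and 0 lower at D28 against D6 (3.26% and 2.42%). Their scaled medians were 0.16, 0.07 and 0.10, beside −0.06, −0.05 and −0.01 for all genes.

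**Figure D1:**
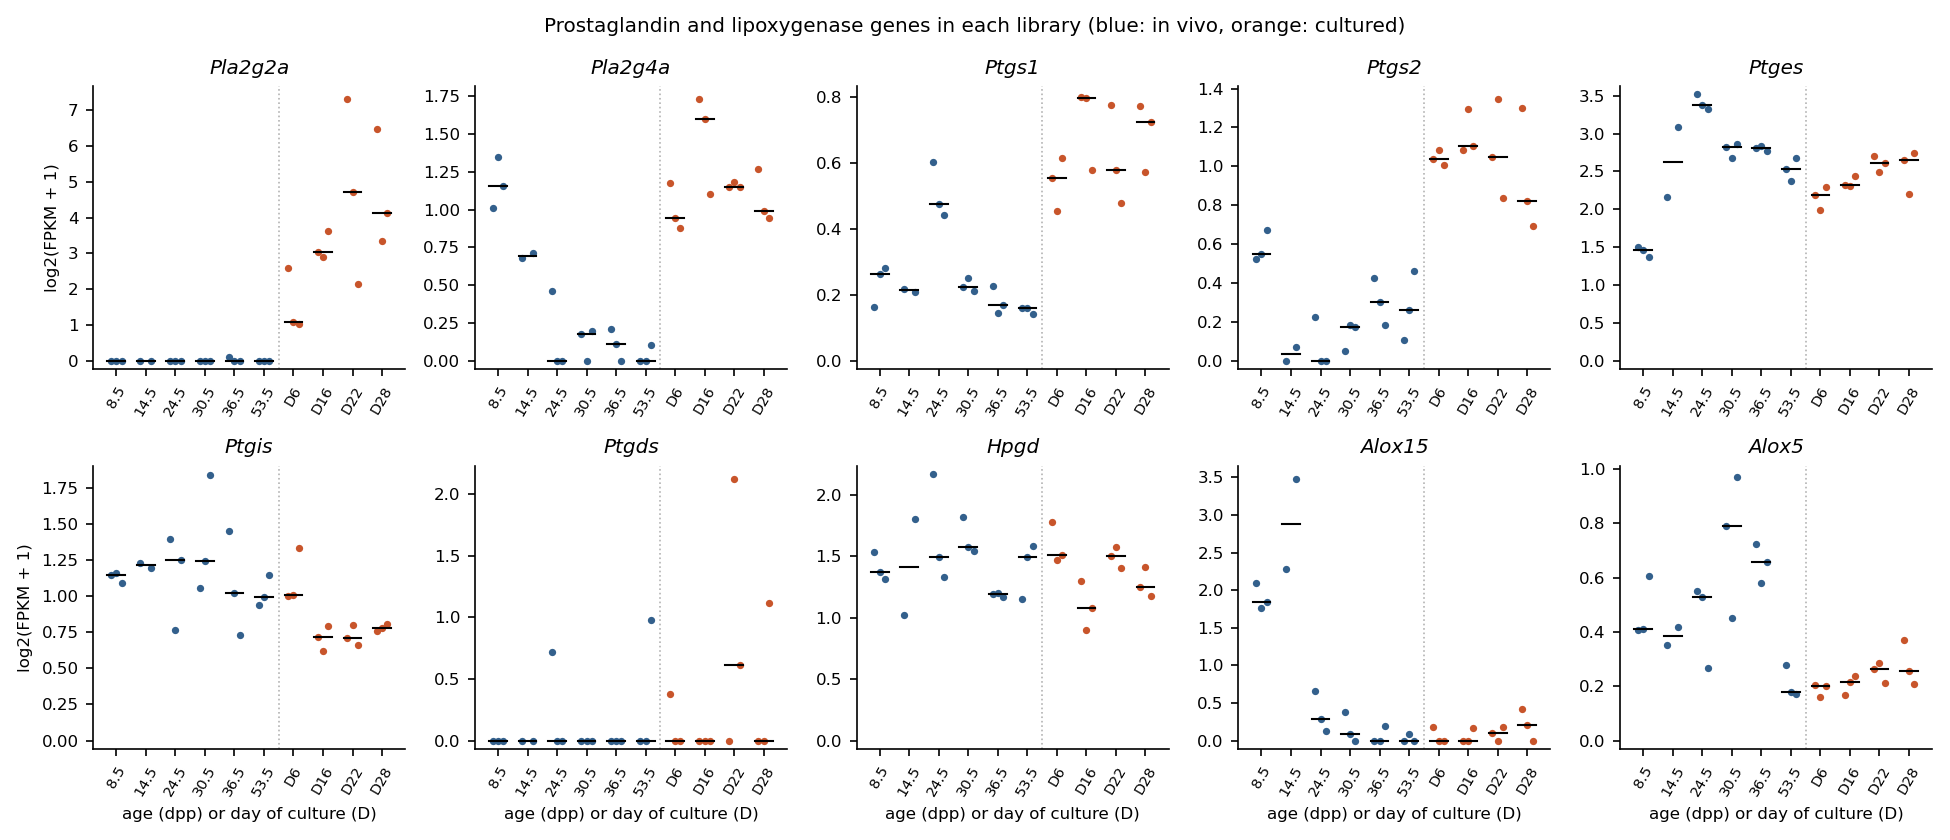
Level of each of the 10 genes as log2(FPKM + 1) in each of the 29 libraries (points, blue for testis from animals and orange for cultured explants) with the group median as a black line, and with a different vertical scale in each panel. Pla2g2a is at or near 0 in every blue point and reaches 158 FPKM in 1 D22 library, and Alox15 is highest at 14.5 dpp (3.87 and 10.2 FPKM).

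Pla2g2a (Entrez gene 29692) encodes a secreted phospholipase A2 known for its rise in inflamed tissue. It was listed at 0 in 16 of the 17 testes, with 0.0742 FPKM in a single 36.5 dpp testis. Its level was 5.08, 1.13 and 1.04 FPKM in the D6 libraries and 7.21, 6.48 and 11.3 FPKM at D16. It was 158, 25.2 and 3.43 FPKM at D22 and 87.4, 9.09 and 16.4 FPKM at D28. Every cultured library lay above every testis, and replicate 1 of D22 and of D28 stood far above the others of its group, with a ratio of highest to lowest of 46.2 at D22 and 9.62 at D28. The order of medians was D22, D28, D16, D6, and D16, D22 and D28 overlapped in their libraries, while the D6 libraries lay below those of D16 and D28 and overlapped with D22. No fold is given against groups at 0, and the fitted differences depend on the pseudocount of 1.

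Pla2g2a rose in culture. Its fitted difference of log2(FPKM + 1) from 14.5 dpp was 4.73 (SE 1.28, limma with Benjamini-Hochberg adjusted p = 0.0169, higher in 3 of 3) at D22 and 4.64 (SE 1.28, adjusted p = 0.0163, higher in 3 of 3) at D28. At D6 and D16 the differences were 1.57 and 3.19 and did not pass (adjusted p = 0.0738 and 0.0807 in limma), although 3 of 3 libraries were higher in each, and both passed with a pseudocount of 0.1 (4.28, adjusted p = 0.0226, and 6.36, adjusted p = 0.00861). Against age-matched testis the difference was 3.19 at D16 (scaled 2.89), 4.73 at D22 (scaled 4.43) and 4.61 at D28 (scaled 4.30), called in each with limma adjusted p of 1.86e-05, 0.00610 and 0.000529 and 3 of 3 libraries higher. Against 8.5 dpp the D6 difference of 1.57 did not pass (limma adjusted p = 0.231, higher in 3 of 3), although it too did with that pseudocount (4.28, adjusted p = 0.00926). It was higher at D28 than at 8.5 dpp by 4.64 (SE 1.04, limma adjusted p = 0.00176, 3 of 3) and higher at D28 than at D6 by 3.07 (SE 1.04, limma adjusted p = 0.0447, 3 of 3).

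With 1 library left out in turn, 4 of these 7 Pla2g2a calls were kept in every fit: D16, D22 and D28 against age-matched testis and D28 against 8.5 dpp. The other 3 depended on single libraries. Without replicate 1 or replicate 2 of 14.5 dpp the D22 and D28 calls were lost, although the differences stayed at 4.73 and 4.64. Without D22 replicate 1 the D22 difference from 14.5 or 30.5 dpp was 3.43, and without D22 replicate 3 it was 6.01. Without D28 replicate 1 the D28 difference was 3.73 from 14.5 or 8.5 dpp and 3.69 from 36.5 dpp, and without D28 replicate 2 it was 5.29 and 5.26. The D28 call against D6 was lost in 11 of 15 such fits: without any 1 of the 8.5 dpp or D16 replicates, D6 replicate 2 or 3, D22 replicate 2, or D28 replicate 1 or 3 (adjusted p from 0.0571 to 0.153), and the difference was 2.15 without D28 replicate 1 and 3.72 without replicate 2. It was also lost with no filter (adjusted p = 0.0659) and with a trend and robust variance prior (0.0725). In the other direction, the D6 difference from 14.5 dpp passed without D6 replicate 1 (1.06, adjusted p = 0.0316), and the D16 difference passed without D22 replicate 1 (0.0296) or D22 replicate 3 (0.0308), or with all 29 libraries in 1 fit (0.00706). In a setting chosen after seeing the data, with replicate 1 of both D22 and D28 left out, Pla2g2a was called against 14.5 dpp at D16 (3.19, adjusted p = 0.00826), D22 (3.43, 0.00922) and D28 (3.73, 0.00638) and against 8.5 dpp at D6 (1.57, 0.0433).

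Summed levels of macrophage, endothelial and fibroblast markers were higher in every cultured library than at 14.5 dpp, and within D22 and D28 they were highest in the libraries with the most Pla2g2a. The summed level of 9 macrophage markers was 40.2 and 38.9 FPKM at 14.5 dpp and 85.1, 75.9 and 94.6 FPKM at D6. It was 70.3, 73.6 and 77.6 FPKM at D16, 110, 72.1 and 71.8 FPKM at D22 and 142, 78.0 and 76.3 FPKM at D28. In testes of other ages the sum was 58.8, 53.7 and 66.8 FPKM at 8.5 dpp, 39.2, 31.9 and 30.2 FPKM at 24.5 dpp, 42.9, 97.8 and 85.5 FPKM at 30.5 dpp, 121, 136 and 127 FPKM at 36.5 dpp, and 267, 235 and 226 FPKM at 53.5 dpp. Replicate 1 was the highest library at D22 and D28 for Pla2g2a and for this sum alike. At 36.5 and 53.5 dpp the sum was mostly Aif1, with a median of 102 and 209 FPKM, while C1qa had a median of 4.08 and 5.33 FPKM there against 24.4 FPKM at D28, so the sum does not rank these testes against culture for the list as a whole. Of 8 macrophage markers tested, 6, 5, 3 and 4 were called higher than 14.5 dpp at D6, D16, D22 and D28 and 0 lower, with a median log2 difference of 1.11, 0.89, 1.0 and 0.89 beside −0.04, −0.05, −0.05 and −0.08 for all genes. C1qa was the most abundant of them in culture, and the defining marker Cd163 was listed at 0 in every cultured library.

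The summed level of 6 endothelial markers was 37.6 and 32.9 FPKM at 14.5 dpp, 81.8, 82.0 and 94.1 FPKM at D6 and 104, 81.7 and 83.1 FPKM at D16. It was 113, 67.6 and 62.1 FPKM at D22 and 98.2, 53.4 and 69.0 FPKM at D28. In testes of other ages it was 54.6, 50.7 and 53.1 FPKM at 8.5 dpp, 16.7, 9.03 and 12.4 FPKM at 24.5 dpp, 8.95, 7.30 and 13 FPKM at 30.5 dpp, 7.34, 7.78 and 3.09 FPKM at 36.5 dpp and 4.47, 2.58 and 4.51 FPKM at 53.5 dpp. Every cultured library therefore lay above every testis except that 1 D28 library, with 53.4 FPKM, fell within the range at 8.5 dpp. At D6 4 of 5 tested markers were called higher than 14.5 dpp, then 4, 2 and 2 of 6 at D16, D22 and D28, with 0 lower and medians of 1.25, 1.18, 1.02 and 0.86. Cdh5 was the most abundant at D28 (25.3 FPKM) and none was listed at 0 there.

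The summed level of 6 fibroblast and stroma markers was 395 and 427 FPKM at 14.5 dpp, 537, 495 and 599 FPKM at D6 and 687, 495 and 466 FPKM at D16. It was 612, 541 and 492 FPKM at D22 and 574, 495 and 561 FPKM at D28. Every cultured library thus lay above the 14.5 dpp testes and below those of 8.5 dpp, where the sum was 788, 770 and 756 FPKM. It was 143, 78.5 and 91.3 FPKM at 24.5 dpp, 60.4, 50.5 and 93.9 FPKM at 30.5 dpp, 54.7, 43.6 and 29.5 FPKM at 36.5 dpp and 20.8, 19.2 and 34.9 FPKM at 53.5 dpp. Of 6 tested markers 0, 1, 1 and 2 were called higher than 14.5 dpp at D6, D16, D22 and D28 and 0, 1, 1 and 1 lower, with medians of 0.69, 0.15, 0.14 and 0.09. Dcn was the most abundant at D28 (221 FPKM) and none was listed at 0 there.

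This order of libraries was not particular to these 3 lists. Of 14 marker lists 6 had their highest sum at D22 and D28 in the same libraries as Pla2g2a: these 3 and the Leydig, the lymphocyte and the neutrophil and eosinophil lists. At D6 Pla2g2a was highest in replicate 1 but the macrophage, endothelial and fibroblast sums in replicate 3, and at D16 it was highest in replicate 3, as was the macrophage sum, while the endothelial and fibroblast sums were highest in replicate 1. The part of macrophages, endothelium, fibroblasts or other cell types in the Pla2g2a result was not tested.

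**Figure D2:**
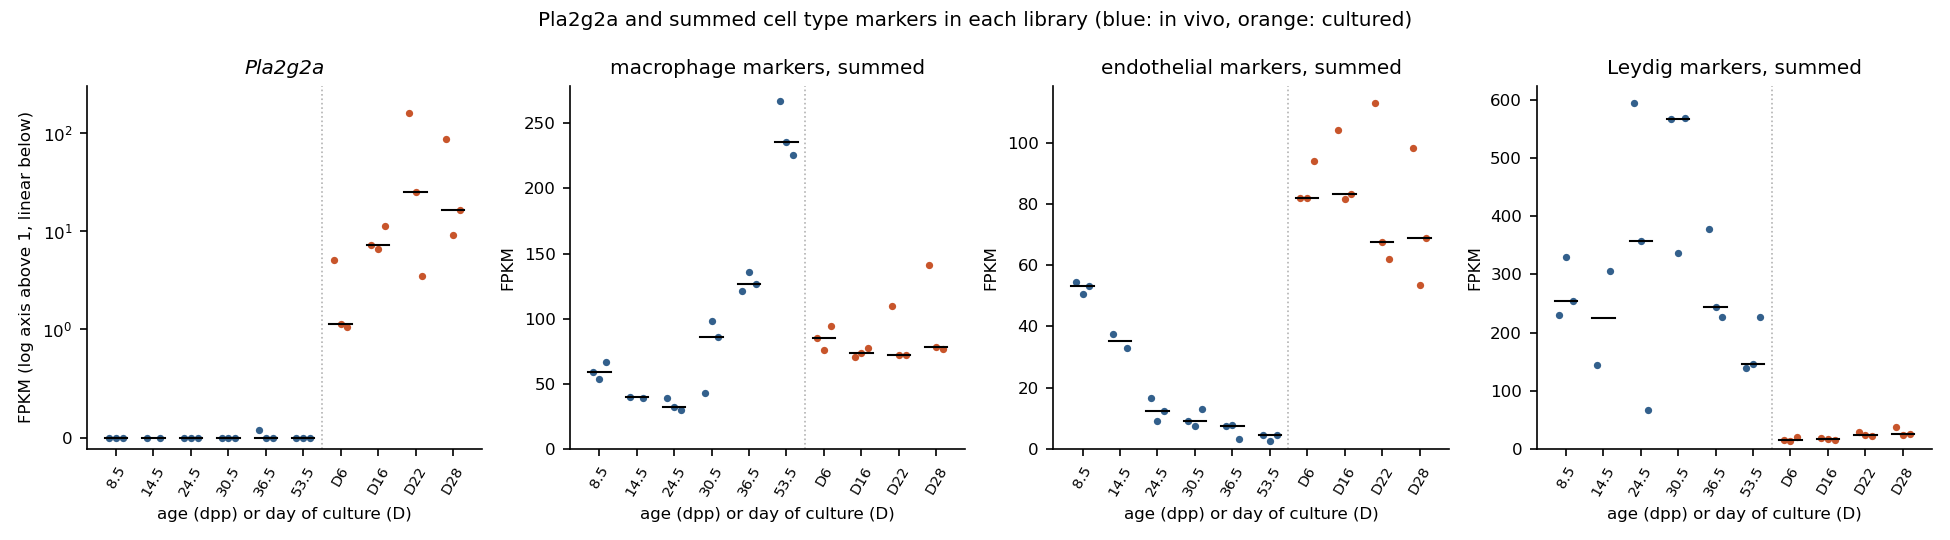
Pla2g2a in FPKM, on an axis that is linear near 0 and logarithmic above, and the summed FPKM of the macrophage, endothelial and Leydig marker lists, with 1 point per library in each of the 10 groups. The D22 and D28 libraries with the most Pla2g2a (158 and 87.4 FPKM) also have the largest macrophage sums of their groups (110 and 142 FPKM).

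Pla2g4a (Entrez gene 24653) encodes the cytosolic phospholipase A2 that frees arachidonic acid inside cells. Its level was 1.02, 1.54 and 1.23 FPKM at 8.5 dpp, 0.598 and 0.642 FPKM at 14.5 dpp, and at most 0.377 FPKM in every testis from 24.5 dpp on. It was 1.26, 0.928 and 0.836 FPKM at D6 and 2.32, 2.04 and 1.15 FPKM at D16. It was 1.22, 1.27 and 1.22 FPKM at D22 and 1.41, 0.985 and 0.927 FPKM at D28. All cultured libraries lay above all testes of 14.5 dpp and older, and all but 2 D16 libraries lay within or below the range at 8.5 dpp. The order of medians was D16, 8.5 dpp, D22, D28, D6 and then 14.5 dpp, and the libraries of the first 5 of these overlapped.

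Among testes of increasing age Pla2g4a changed (limma F test adjusted p = 2.28e-06), with the highest median at 8.5 dpp. Culture was higher than 14.5 dpp at D16 by 0.78 log2 (SE 0.17, limma adjusted p = 0.00712, higher in 3 of 3), whereas differences of 0.30, 0.47 and 0.37 at D6, D22 and D28 did not pass (limma adjusted p = 0.178, 0.0585 and 0.109, higher in 3 of 3 each). It was higher than age-matched testis by 1.33 at D16 (scaled 1.14), 1.04 at D22 (scaled 0.83) and 0.96 at D28 (scaled 0.76), in 3 of 3 libraries each, with limma adjusted p of 0.00105, 3.58e-05 and 0.000196. Against the explanted tissue of 8.5 dpp the difference was −0.17 at D6 and −0.10 at D28, and neither passed.

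Ptgs2 (Entrez gene 29527) encodes the inducible cyclooxygenase. Its level was 0.435, 0.462 and 0.591 FPKM at 8.5 dpp, 0 and 0.0510 FPKM at 14.5 dpp, and at most 0.376 FPKM in older testes. It was 1.06, 1.12 and 1.01 FPKM at D6 and 1.12, 1.46 and 1.15 FPKM at D16. It was 1.07, 1.54 and 0.789 FPKM at D22 and 1.46, 0.769 and 0.616 FPKM at D28. Every cultured library was above every testis, the lowest cultured value, 0.616 FPKM, being close to the highest testis value, 0.591 FPKM. The medians ran D16, D22, D6, D28 and then 8.5 dpp, and neighbouring groups in this order overlapped in culture, while the 8.5 dpp testes lay just below D28.

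Ptgs2 was higher than 14.5 dpp at every culture time: by 1.01 log2 at D6 (SE 0.11, limma adjusted p = 0.00537), 1.13 at D16 (SE 0.19, adjusted p = 0.00208), 1.04 at D22 (SE 0.19, adjusted p = 0.00257) and 0.90 at D28 (SE 0.19, adjusted p = 0.00476), in 3 of 3 libraries each. Against age-matched testis it was higher by 1.09 at D16 (scaled 0.92, limma adjusted p = 0.000154), 0.94 at D22 (scaled 0.74, adjusted p = 0.000545) and 0.63 at D28 (adjusted p = 0.00977), in 3 of 3 each, but scaling ended the D28 call (0.36, adjusted p = 0.0825). Against 8.5 dpp the increase was 0.47 at D6 (scaled 0.36, SE 0.15, limma adjusted p = 0.0209, 3 of 3), and the D28 difference of 0.36 did not pass (adjusted p = 0.0543, 3 of 3). The D6 call was lost without 8.5 dpp replicate 1 (adjusted p = 0.0623), 8.5 dpp replicate 2 (0.0565) or D6 replicate 2 (0.0582), and the D28 difference passed without D28 replicate 3 (0.48, adjusted p = 0.0200) and was 0.18 without D28 replicate 1 (adjusted p = 0.244).

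Ptgs1 (Entrez gene 24693) encodes the constitutive cyclooxygenase and was low throughout. Its level ran from 0.103 to 0.520 FPKM in the 17 testes with a median of 0.163 FPKM, and from 0.370 to 0.741 FPKM in the 12 cultured libraries with a median of 0.511 FPKM. At 14.5 dpp it was 0.163 and 0.157 FPKM. It was 0.468, 0.370 and 0.530 FPKM at D6, 0.741, 0.737 and 0.492 FPKM at D16, 0.711, 0.492 and 0.394 FPKM at D22, and 0.708, 0.488 and 0.653 FPKM at D28. Cultured and 24.5 dpp libraries overlapped, the latter at 0.520, 0.389 and 0.360 FPKM, and all other testes lay below all cultured libraries.

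Against 14.5 dpp Ptgs1 was higher by 0.51 log2 at D16 (SE 0.12, limma adjusted p = 0.00913), 0.40 at D22 (SE 0.12, adjusted p = 0.0255) and 0.48 at D28 (SE 0.12, adjusted p = 0.0101), in 3 of 3 libraries each, and it was not tested at D6. The D22 call was lost without 14.5 dpp replicate 1 (adjusted p = 0.0798) or 2 (0.0857) and without D22 replicate 1 (0.0766) or 2 (0.0518). Among age-matched comparisons it was called at D28 (0.51, scaled 0.31, limma adjusted p = 0.00190, higher in 3 of 3), did not pass at D16 (0.22, scaled 0.14, limma adjusted p = 0.0970) and was not tested at D22. Against 8.5 dpp it was higher by 0.30 at D6 (scaled 0.23, SE 0.10, limma adjusted p = 0.0184) and 0.45 at D28 (SE 0.10, adjusted p = 0.00112), in 3 of 3 each, the D6 call being lost without 8.5 dpp replicate 1 (adjusted p = 0.0673) or D6 replicate 3 (0.0606).

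Promoters are shown for the 5 genes called higher in culture than in testis in at least 1 comparison: the 4 above and Ptges, the prostaglandin E synthase described next. The set of RefSeq promoter sequences used here, for build GRCr8, held 8 of the 10 genes, all but Ptgis and Alox15. The 250 bases before the start are printed 5′ to 3′ on the gene's own strand: Pla2g2a from chr5:156359475-156359724 (+), Pla2g4a from chr13:64572353-64572602 (−), Ptgs1 from chr3:39981169-39981418 (+), Ptgs2 from chr13:64713813-64714062 (+) and Ptges from chr3:34586988-34587237 (−). Capitals mark matches to 7 motifs searched on both strands.
Pla2g2a: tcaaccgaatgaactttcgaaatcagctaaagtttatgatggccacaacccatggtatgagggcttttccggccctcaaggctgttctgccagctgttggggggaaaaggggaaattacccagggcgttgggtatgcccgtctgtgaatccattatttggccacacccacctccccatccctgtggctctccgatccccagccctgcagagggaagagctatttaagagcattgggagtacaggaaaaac
Pla2g4a: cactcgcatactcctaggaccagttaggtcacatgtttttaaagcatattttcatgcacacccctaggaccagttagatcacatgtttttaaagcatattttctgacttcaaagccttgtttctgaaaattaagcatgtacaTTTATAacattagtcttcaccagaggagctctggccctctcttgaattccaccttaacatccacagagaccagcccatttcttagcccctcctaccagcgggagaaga
Ptgs1: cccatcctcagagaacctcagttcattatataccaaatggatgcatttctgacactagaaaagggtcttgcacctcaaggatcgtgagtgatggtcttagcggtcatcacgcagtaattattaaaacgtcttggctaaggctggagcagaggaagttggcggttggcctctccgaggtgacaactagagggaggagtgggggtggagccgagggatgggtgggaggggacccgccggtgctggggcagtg
Ptgs2: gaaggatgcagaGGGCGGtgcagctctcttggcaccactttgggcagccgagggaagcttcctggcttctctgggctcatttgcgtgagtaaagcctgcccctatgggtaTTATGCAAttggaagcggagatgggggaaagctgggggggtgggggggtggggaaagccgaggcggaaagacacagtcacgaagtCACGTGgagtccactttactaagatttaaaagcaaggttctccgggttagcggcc
Ptges: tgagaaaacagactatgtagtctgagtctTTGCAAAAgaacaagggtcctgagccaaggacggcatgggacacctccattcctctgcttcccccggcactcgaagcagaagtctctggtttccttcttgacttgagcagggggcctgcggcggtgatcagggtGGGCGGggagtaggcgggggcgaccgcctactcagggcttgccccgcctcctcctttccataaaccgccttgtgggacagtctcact
Of the motifs, TATAAA was in 12.9% of 33469 promoters of this length, GGGCGG in 30.5%, CACGTG in 5.59%, TGANTCA in 6.34%, TGACG in 18.2%, TTGCNNAA in 9.22% and GGGANTTCC in 1.43%. The Ptgs2 promoter held GGGCGG 238 to 233 bases before the start, TTGCNNAA on the other strand 140 to 133 bases before it, and CACGTG 55 to 50 bases before it. The Ptges promoter held TTGCNNAA 221 to 214 bases and GGGCGG 87 to 82 bases before the start. The Pla2g4a promoter held TATAAA on the other strand, 108 to 103 bases before the start, and the Pla2g2a and Ptgs1 promoters held none of the 7 motifs. Pla2g4a and Ptgs2 are neighbours on chromosome 13 on opposite strands with 141710 bases between them, where the RefSeq table lists 2 genes, 0 of them protein-coding. A match is a description of letters and no more.

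Ptges (Entrez gene 59103) encodes the microsomal prostaglandin E synthase and had a higher level than Ptgis and Ptgds, the other synthases among the 10 genes, in every library. Its level was 1.84, 1.76 and 1.58 FPKM at 8.5 dpp, 3.47 and 7.53 FPKM at 14.5 dpp and 10.5, 9.37 and 9.03 FPKM at 24.5 dpp. From 30.5 to 53.5 dpp it lay between 4.18 and 6.27 FPKM. The 24.5 dpp testes were above all other libraries and the 8.5 dpp testes below all others, and Ptges changed with age (limma F test adjusted p = 1.19e-06). In culture it was 3.57, 2.98 and 3.91 FPKM at D6, 3.97, 3.96 and 4.43 FPKM at D16, 5.49, 4.63 and 5.13 FPKM at D22 and 5.26, 3.6 and 5.72 FPKM at D28.

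Culture and 14.5 dpp overlapped for Ptges, and differences of −0.47, −0.27, −0.02 and −0.10 log2 at D6, D16, D22 and D28 did not pass, with the D22 value at 0.00 after scaling. The D6 difference depended on which 14.5 dpp testis was used: it was −0.93 without replicate 1 and −0.0018 without replicate 2. Ptges was lower than at 24.5 dpp in D16 by −1.05 (scaled −1.16, SE 0.10, limma adjusted p = 9.65e-05, lower in 3 of 3). At D22 and D28 against age-matched testis the differences were −0.19 and −0.27 and did not pass (limma adjusted p = 0.125 and 0.132). Scaled, they were −0.78 (limma adjusted p = 0.000143, but the ratio of medians stayed under 2) and −1.09 (adjusted p = 0.000394), the latter a call. Compared with 8.5 dpp, Ptges was higher by 0.71 at D6 (SE 0.13, limma adjusted p = 0.000505) and 1.09 at D28 (SE 0.13, adjusted p = 9.29e-06), in 3 of 3 each. The D6 call was lost by the ratio of medians after scaling (0.58), without 8.5 dpp replicate 3 (0.67), D6 replicate 1 (0.70) or D6 replicate 3 (0.65).

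Ptgis (Entrez gene 25527) encodes prostacyclin synthase. Its level was 1.34 and 1.29 FPKM at 14.5 dpp and ran from 0.657 to 2.58 FPKM over the 17 testes, where no change with age passed (limma F test adjusted p = 0.626, scaled 0.0293 with too small a ratio of medians). It was 1.01, 1.01 and 1.52 FPKM at D6. It was 0.646, 0.536 and 0.734 FPKM at D16, 0.638, 0.739 and 0.580 FPKM at D22 and 0.694, 0.715 and 0.746 FPKM at D28. The libraries of D16, D22 and D28 lay below those of 14.5 dpp and of D6 and overlapped with those of 24.5 and 36.5 dpp.

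Ptgis fell relative to 14.5 dpp at D16 (−0.50 log2, SE 0.09, limma adjusted p = 0.00237, lower in 3 of 3) and D22 (−0.49, SE 0.09, adjusted p = 0.00227, lower in 3 of 3). At D28 the difference of −0.43 had an adjusted p of 0.00384 in limma but a ratio of medians of 0.543, short of the threshold. The D16 call was lost by that ratio without 14.5 dpp replicate 1 (−0.49) or D16 replicate 2 (−0.46), and the D22 call without D22 replicate 1 (−0.48) or 3 (−0.46) or with all 29 libraries in 1 fit (adjusted p = 0.0526). Against 30.5 dpp D22 was lower by −0.66 (scaled −1.02, SE 0.20, limma adjusted p = 0.0170, lower in 3 of 3), a call lost without 30.5 dpp replicate 3 (−0.43) or D22 replicate 3 (adjusted p = 0.0530). Differences of −0.43 at D16 against 24.5 dpp and −0.29 at D28 against 36.5 dpp did not pass as deposited, and passed when scaled (−0.45, limma adjusted p = 0.0341, and −0.76, adjusted p = 0.00784), the former also without 24.5 dpp replicate 2 (−0.61, adjusted p = 0.00369) and with all 29 libraries in 1 fit (−0.43, adjusted p = 0.0330).

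Ptgds (Entrez gene 25526), the lipocalin-type prostaglandin D synthase, was listed at 0 in 15 of 17 testes and 8 of 12 cultured libraries. The exceptions were 0.641 FPKM in a 24.5 dpp testis, 0.970 FPKM in a 53.5 dpp testis, 0.303 FPKM at D6, 3.35 and 0.525 FPKM at D22 and 1.17 FPKM at D28. Its differences passed in no comparison, apart from D22 against 30.5 dpp when D22 replicate 1 was left out (1.37, limma adjusted p = 0.0245) or all 29 libraries were fitted together (adjusted p = 0.0234).

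Hpgd (Entrez gene 79242) encodes the dehydrogenase that begins prostaglandin breakdown and was called in no comparison, though tested in each. It was 1.03 and 2.5 FPKM at 14.5 dpp, and the medians of the 17 testes and of the 12 cultured libraries were 1.83 and 1.66 FPKM. Culture was 2.43, 1.77 and 1.86 FPKM at D6, 1.47, 0.865 and 1.12 FPKM at D16, 1.84, 1.98 and 1.65 FPKM at D22 and 1.38, 1.67 and 1.26 FPKM at D28, and all 4 groups overlapped with 14.5 dpp in range except that 1 D16 library was lower. Differences from 14.5 dpp were 0.18, −0.32, 0.08 and −0.13 log2 and those from age-matched testis at D16, D22 and D28 were −0.57, −0.15 and 0.09, none of them passing as deposited. Left-out libraries gave a call in D16 against 14.5 dpp (−0.71, limma adjusted p = 0.0144, without 14.5 dpp replicate 1) and D16 against 24.5 dpp (−0.74, adjusted p = 0.0287, without 24.5 dpp replicate 3). Scaled, the age-matched differences were −0.63 at D16 (limma adjusted p = 0.0406), −0.62 at D22 (adjusted p = 0.000983) and −0.47 at D28 (adjusted p = 0.00300), the last with its sign turned, and none was called because the ratio of medians stayed under 2.

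Alox15 (Entrez gene 81639) encodes a lipoxygenase that acts on arachidonic and linoleic acid and is known from macrophages and reticulocytes. Its level was 3.26, 2.39 and 2.58 FPKM at 8.5 dpp and 3.87 and 10.2 FPKM at 14.5 dpp. At 24.5 dpp it was 0.575, 0.216 and 0.0893 FPKM, and no older testis exceeded 0.303 FPKM. In culture it was 0.130, 0 and 0 FPKM at D6, 0, 0 and 0.125 FPKM at D16, 0.0688, 0 and 0.133 FPKM at D22 and 0.340, 0.156 and 0 FPKM at D28. All 5 testes of 8.5 and 14.5 dpp stood above every other library, and cultured libraries overlapped with testes of 24.5 dpp and older.

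Alox15 fell in culture relative to 14.5 dpp: the log2 difference was −2.82 at D6 (SE 0.33, limma adjusted p = 0.00609), −2.83 at D16 (SE 0.28, adjusted p = 0.000148), −2.79 at D22 (SE 0.28, adjusted p = 0.000118) and −2.67 at D28 (SE 0.28, adjusted p = 0.000118), lower in 3 of 3 each. Relative to the explanted 8.5 dpp tissue it fell by 1.84 at D6 (scaled −1.71, SE 0.12, limma adjusted p = 8.82e-08) and by 1.69 at D28 (SE 0.12, adjusted p = 6.98e-08), lower in 3 of 3 each. It also changed between testes of different ages (limma F test adjusted p = 8.53e-08). The age-matched comparisons from 24.5 dpp on did not test it, both groups being below the filter. The pair of 14.5 dpp testes set the size of the first 4 differences: without replicate 1 they were −3.42, −3.42, −3.39 and −3.27 and without replicate 2 −2.23, −2.23, −2.19 and −2.08, the calls being kept.

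The 14.5 dpp testes differed in more than Alox15. Replicate 2 had more Alox15 (10.2 against 3.87 FPKM), Ptges (7.53 against 3.47 FPKM) and Hpgd (2.5 against 1.03 FPKM) than replicate 1. Its summed marker level was larger for 10 of the 14 lists of cell markers, among them Leydig (306 against 145 FPKM), Sertoli (1828 against 1226 FPKM), erythroid (392 against 247 FPKM) and spermatocyte (73.5 against 14.5 FPKM). It was smaller for the other 4: peritubular and smooth muscle (316 against 521 FPKM), endothelial (32.9 against 37.6 FPKM), macrophage (38.9 against 40.2 FPKM) and lymphocyte (2.46 against 3.41 FPKM). The part of these cell types in the difference between the 14.5 dpp testes was not tested.

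For 3 marker lists, Leydig, erythroid and lymphocyte, the summed level in every cultured library lay below that in every 8.5 and 14.5 dpp testis, as did Alox15. The Leydig sum was 230, 330 and 254 FPKM at 8.5 dpp, 145 and 306 FPKM at 14.5 dpp, 15.0, 12.7 and 19.7 FPKM at D6, 18.1, 17.5 and 14.7 FPKM at D16, 29, 23.7 and 22.4 FPKM at D22 and 36.8, 24.4 and 25.7 FPKM at D28. Testes of 24.5 dpp and older, where Alox15 was also low, held between 66.3 and 595 FPKM: 595, 357 and 66.3 FPKM at 24.5 dpp, 567, 337 and 569 FPKM at 30.5 dpp, 379, 244 and 228 FPKM at 36.5 dpp and 139, 146 and 226 FPKM at 53.5 dpp. Of 6 Leydig markers tested, 6, 5, 5 and 6 were called lower than 14.5 dpp at D6, D16, D22 and D28 and 0 higher, with a median log2 difference of −2.99, −2.64, −2.50 and −2.21. Hsd3b1 was the most abundant at D28 (16.7 FPKM), Cyp17a1 at 14.5 dpp (83.4 FPKM), and none was listed at 0 in those groups. 

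The erythroid sum, of 3 markers, was 700, 284 and 370 FPKM at 8.5 dpp, 247 and 392 FPKM at 14.5 dpp and 326, 99.8 and 107 FPKM at 24.5 dpp. It was 61.9, 37.4 and 170 FPKM at 30.5 dpp, 25.2, 35.1 and 20.4 FPKM at 36.5 dpp and 15.4, 14.5 and 32.1 FPKM at 53.5 dpp. In culture it was 1.17, 1.88 and 2.91 FPKM at D6, 1.25, 1.23 and 2.0 FPKM at D16, 6.07, 5.15 and 4.05 FPKM at D22 and 4.43, 6.91 and 8.55 FPKM at D28. Of 2 erythroid markers tested, 2, 2, 1 and 1 were lower than 14.5 dpp at D6, D16, D22 and D28, and 1 was higher at D28, with medians of −4.21, −4.50, −3.85 and −3.70. Hbb was the most abundant in every testis group and was listed at 0 in all D16, D22 and D28 libraries. The lymphocyte sum, in which Cd3e was the most abundant gene over all groups and Cd3d and Ms4a1 were listed at 0 at D28, was 2.40, 2.27 and 2.13 FPKM at 8.5 dpp and 3.41 and 2.46 FPKM at 14.5 dpp. It was 2.07, 1.79 and 1.66 FPKM at D6, 1.38, 1.60 and 0.830 FPKM at D16, 1.79, 1.48 and 1.14 FPKM at D22 and 2.08, 1.60 and 1.80 FPKM at D28, and in testes from 24.5 dpp on it ran from 0.959 to 5.87 FPKM. Of 3 lymphocyte markers tested, 0, 2, 1 and 1 were lower than 14.5 dpp at the 4 times and 0 higher. Against 8.5 dpp, however, 2 of 3 tested, Cd3e and Cd2, were called higher and 1 lower, at D6 and again at D28. The tested lymphocyte markers thus went both ways against 8.5 dpp, although the summed level lay below it in every cultured library. Of the Leydig markers 4 and 5 of 6 were lower than 8.5 dpp at D6 and D28 and 0 higher (medians −3.47 and −2.68), and of the erythroid markers 1 of 2 was lower at each time and 0 and 1 higher (−4.32 and −3.80). The part of Leydig, erythroid or lymphoid cells in the Alox15 result was not tested.

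Alox5 (Entrez gene 25290) encodes the enzyme that starts leukotriene synthesis. Its level ran from 0.126 to 0.961 FPKM in testes and from 0.119 to 0.292 FPKM in culture. The highest groups were 30.5 dpp, with 0.729, 0.369 and 0.961 FPKM, and 36.5 dpp, with 0.654, 0.496 and 0.577 FPKM. D22, at 0.202, 0.219 and 0.159 FPKM, and D28, at 0.292, 0.194 and 0.156 FPKM, lay below all of these. Alox5 changed with age in testes (limma F test adjusted p = 0.0103). It was lower in culture by −0.48 at D22 against 30.5 dpp (scaled −0.69, SE 0.14, limma adjusted p = 0.0149) and −0.38 at D28 against 36.5 dpp (scaled −0.69, SE 0.10, adjusted p = 0.00849), lower in 3 of 3 each, and was below the filter in the other comparisons.

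**Figure D3:**
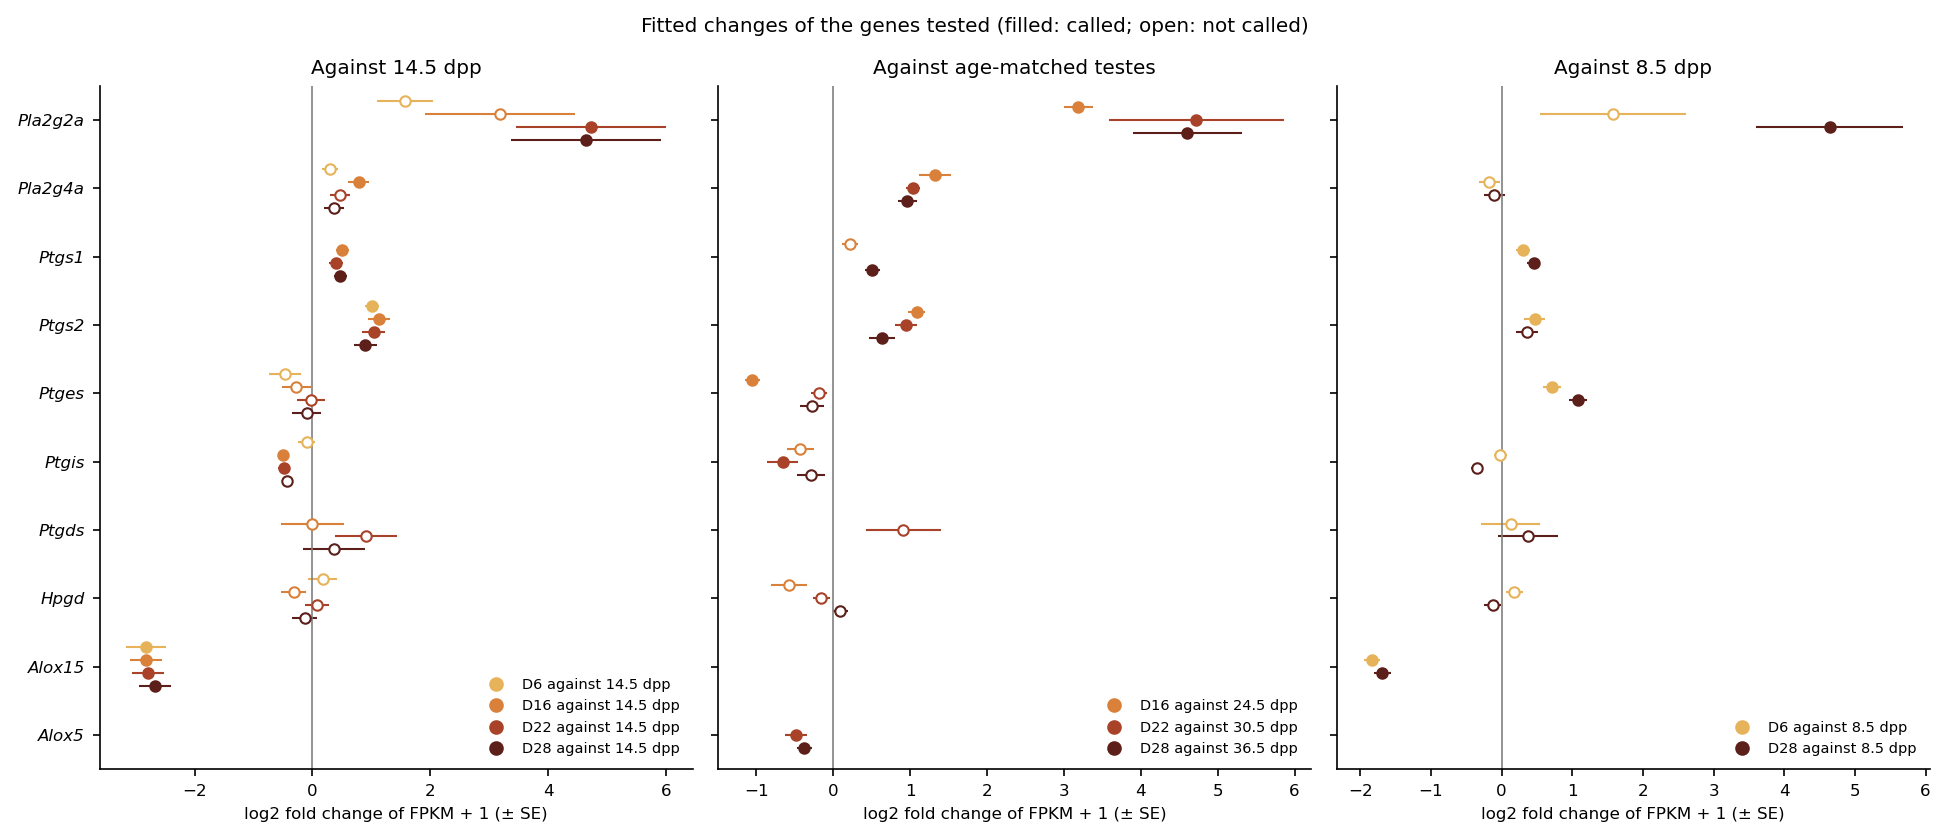
Log2 difference with its SE for each tested gene against 14.5 dpp, against age-matched testis and against 8.5 dpp, on log2(FPKM + 1) as deposited and without scaling. Filled points were called and open points were not, Alox15 lying between −2.83 and −2.67 against 14.5 dpp and Ptgs2 between 0.90 and 1.13.

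In testes of different ages, 6 of the 10 genes were tested and 4 changed (Ptges, Alox15, Alox5 and Pla2g4a), where 90.2% of all tested genes changed, so the count stood below the background. Ptgds, Ptgs1, Ptgs2 and Pla2g2a stayed under the filter at all 6 ages. With scaling Hpgd also passed (limma adjusted p = 0.00623), and Ptgis had an adjusted p of 0.0293 but a ratio of medians short of the threshold.

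Other genes of the pathway were listed by role, also with earlier results known, and 51 of 56 were in the table. Against 14.5 dpp, D6 had 33 tested, 4 higher and 2 lower, where 5.57% of all tested genes were higher and 2.37% lower. D16 had 34 tested, 9 higher (background 6.87%) and 1 lower (6.14%), D22 had 34 tested, 8 higher (7.76%) and 0 lower (5.99%), and D28 had 34 tested, 9 higher (8.40%) and 0 lower (6.88%). Their median log2 difference was 0.12, 0.35, 0.25 and 0.32, beside −0.04, −0.05, −0.05 and −0.08 for all genes.

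Against age-matched testis, D16 had 15 higher (background 25.3%) and 6 lower (18.3%) of 36 pathway genes, D22 had 17 higher (42.1%) and 7 lower (22.9%) of 33, and D28 had 18 higher (46.7%) and 8 lower (23.6%) of 37, with medians of 0.49, 0.72 and 0.79 beside 0.12, 0.51 and 0.64 for all genes. Scaled, D16 had 10 higher and 8 lower of 31 (all genes 21.4% and 21.0%), D22 had 15 higher and 10 lower of 34 (27.8% and 32.7%) and D28 had 14 higher and 13 lower of 38 (29.4% and 36.0%), with medians of 0.48, 0.33 and 0.34 beside −0.02, −0.07 and −0.11. Against 8.5 dpp D6 had 11 higher (9.90%) and 4 lower (6.23%) of 34 with a median of 0.17 (all genes 0.06), and scaled 7 higher (7.93%) and 4 lower (8.24%) of 32 with 0.01 (all genes −0.06). D28 had 10 higher (13.6%) and 4 lower (10.5%) of 34 with 0.28 (all genes 0.04), and D28 against D6 had 6 higher (3.12%) and 0 lower (2.79%) of 34 with 0.10 (all genes −0.04). In testes of different ages 34 of 37 changed, where 90.2% of all tested genes did.

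By role, D28 against 14.5 dpp gave 5 of 14 tested phospholipase genes higher and 0 lower (median 0.54), 0 of 3 synthases in either direction (−0.17), 2 of 7 receptors higher (0.17), 1 of 5 genes of transport and breakdown higher (0.30), 0 of 4 lipoxygenase and leukotriene enzymes (−0.16) and 1 of 1 leukotriene and lipoxin receptors higher (0.99), where 8.40% of all tested genes were higher and 6.88% lower. The call of the receptor Ptger4 (0.42) was lost in 9 of 11 fits with 1 library left out and with no filter (limma adjusted p = 0.0557). With scaling 1 of 5 receptors tested was higher. Against 36.5 dpp, where the median of all genes was 0.64 and 46.7% were higher and 23.6% lower, the corresponding counts were 9 higher and 4 lower of 15 (1.45), 1 higher of 3 (0.97), 3 higher and 3 lower of 8 (0.35), 4 higher of 5 (2.69), 1 higher and 1 lower of 5 (0.53) and 0 of 1 (0.53). Scaled, where the median of all genes was −0.11, with 29.4% higher and 36.0% lower, they were 7 higher and 4 lower of 15 (0.72), 0 higher and 1 lower of 3 (0.33), 3 higher and 5 lower of 9 (−0.38), 4 higher and 1 lower of 5 (1.89), 0 higher and 2 lower of 5 (−0.04) and 0 of 1 (−0.24).

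Pla2g7, the secreted hydrolase of platelet-activating factor, was at 0.888 and 2.16 FPKM at 14.5 dpp and 25.1, 30.3 and 26.8 FPKM at D28. Pla2g2d, a secreted phospholipase, was at 1.10 and 1.20 FPKM and at 11.3, 13.8 and 10.4 FPKM, and Pla2r1, the receptor of secreted phospholipases, at 1.26 and 2.88 FPKM and at 10.1, 14.8 and 11.3 FPKM. In each of the 3 all D28 libraries lay above both 14.5 dpp testes. The log2 difference was 3.54 for Pla2g7 (SE 0.30, limma adjusted p = 4.50e-05), 2.57 for Pla2g2d (SE 0.15, adjusted p = 9.97e-06) and 2.13 for Pla2r1 (SE 0.24, adjusted p = 0.000174), each higher in 3 of 3. Against 36.5 dpp they were higher by 1.60, 1.45 and 2.46, and scaling ended the calls of Pla2g7 (0.72) and Pla2g2d (0.64) but not that of Pla2r1 (1.78).

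Ptger1, a receptor of prostaglandin E, was at 6.62 and 7.63 FPKM at 14.5 dpp, 4.51, 4.66 and 3.82 FPKM at 36.5 dpp and 21.6, 20.5 and 21.5 FPKM at D28. Slco2a1, the prostaglandin uptake transporter, was at 2.17 and 5.45 FPKM, 1.59, 1.70 and 1.23 FPKM and 15.8, 22.4 and 21.1 FPKM in the same groups. D28 did not overlap with either testis group for these genes. Against 14.5 dpp the log2 difference was 1.45 for Ptger1 (SE 0.09, limma adjusted p = 1.26e-05) and 2.18 for Slco2a1 (SE 0.26, adjusted p = 0.000234), and against 36.5 dpp it was 2.06 (scaled 1.23, adjusted p = 1.20e-06) and 3.04 (scaled 2.34, adjusted p = 1.24e-06), higher in 3 of 3 each. Cmklr1, a receptor counted here with those of lipid mediators, was at 2.28 and 1.94 FPKM at 14.5 dpp and 6.37, 4.42 and 4.84 FPKM at D28, higher by 0.99 (SE 0.17, limma adjusted p = 0.00155, 3 of 3).

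The leukotriene genes Ltc4s and Alox5ap, whose products make leukotriene C and assist Alox5, were lower in culture than in the explanted tissue. Ltc4s was at 5.81, 8.11 and 7.15 FPKM at 8.5 dpp, 0, 0.534 and 0 FPKM at D6 and 1.77, 0 and 0.649 FPKM at D28, and was listed at 0 in all testes from 14.5 dpp on. Alox5ap was at 2.16, 3.09 and 3.65 FPKM at 8.5 dpp, 1.37, 0.724 and 1.43 FPKM at D6 and 1.76, 0.484 and 0.925 FPKM at D28. Neither gene's cultured libraries overlapped with 8.5 dpp. Alox5ap also changed between testes of different ages (limma F test adjusted p = 1.03e-05). Against 14.5 dpp 0 lipoxygenase and leukotriene enzymes of this list were called lower at D6 or D28. At D6 and D28 the log2 difference was −2.79 and −2.26 for Ltc4s (limma adjusted p = 3.22e-05 and 0.000114) and −0.87 and −0.98 for Alox5ap (adjusted p = 0.00783 and 0.00272), lower in 3 of 3 each, and the D6 call of Alox5ap was lost without 8.5 dpp replicate 3 (−0.74). Alox12b, a lipoxygenase known from epidermis, was at 0.820, 0.753 and 0.644 FPKM at 36.5 dpp and listed at 0 in all cultured libraries.

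**Figure D4:**
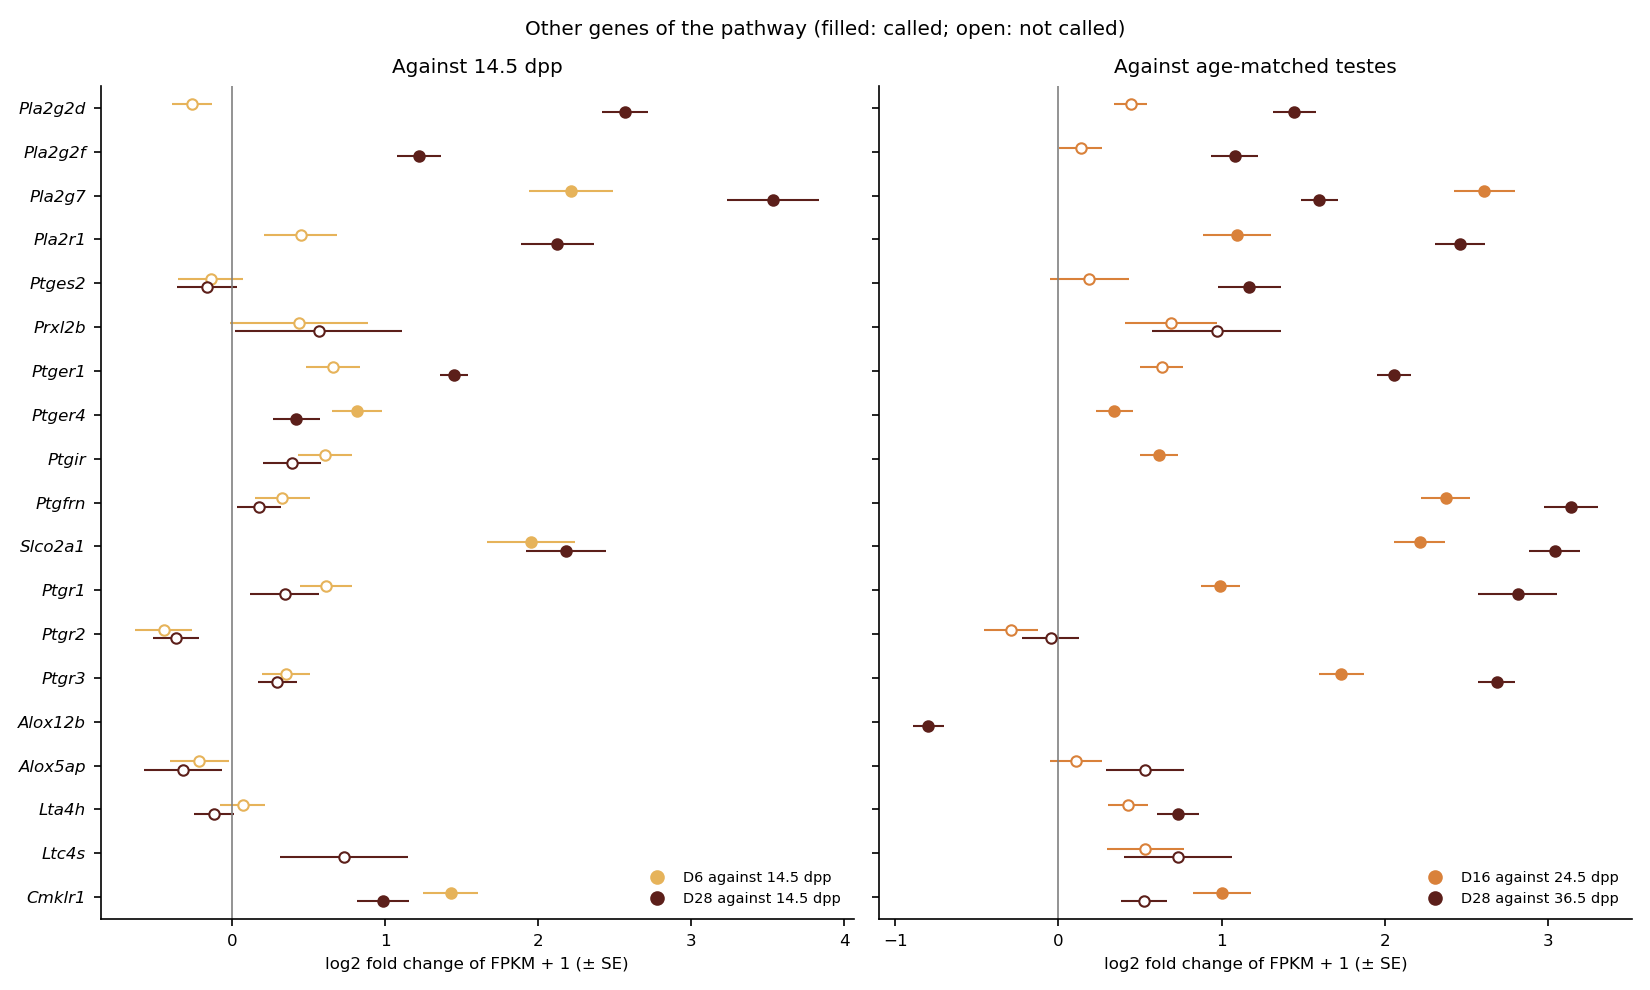
Log2 difference with its SE, on log2(FPKM + 1) as deposited and without scaling, for other pathway genes at D6 and D28 against 14.5 dpp, D16 against 24.5 dpp and D28 against 36.5 dpp, with called genes filled. Pla2g7 (3.54) and Pla2g2d (2.57) lie highest at D28 against 14.5 dpp, and against 36.5 dpp scaling lowers Pla2g7 to 0.72 and Pla2g2d to 0.64.

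The remaining lists of cell markers showed which cells the samples could hold. At D28 against 14.5 dpp, the 8 Sertoli markers tested had 1 higher and 0 lower (median 0.02), 6 of fibroblasts and stroma 2 higher and 1 lower (0.09), 6 of peritubular and smooth muscle 0 higher and 5 lower (−1.64), and 2 erythroid markers 1 higher and 1 lower (−3.70). Of all tested genes 8.40% were higher and 6.88% lower there, with a median of −0.08. Of the germ line, 4 premeiotic markers had 2 lower (−0.74), 5 of spermatocytes 0 called (−0.30) and 3 of spermatids 0 called (−1.16). Of the other immune lists, 3 lymphocyte markers had 1 lower (−0.41), and 1 tested marker each of mast cells (−0.13) and of neutrophils and eosinophils (−0.06) was not called, while 1 of 1 mesothelial markers was higher (1.47). The summed mast cell level at D28 was at most 0.536 FPKM, nearly all Hdc, with Cpa3, Cma1, Tpsab1, Tpsb2, Fcer1a and Ms4a2 listed at 0, and that of neutrophils and eosinophils at most 1.04 FPKM with S100a8, Mpo, Elane and Prg2 listed at 0.

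Against 36.5 dpp, spermatocyte markers were lower in 5 of 5 (median −2.76) and spermatid markers in 5 of 5 (−9.42) at D28, while Sertoli markers were higher in 7 of 8 (3.05) and fibroblast and stroma markers in 6 of 6 (3.34). Macrophage markers were higher in 5 and lower in 2 of 8 (1.92), endothelial higher in 5 of 6 (2.36) and Leydig lower in 4 of 6 (−1.94). Of all tested genes 46.7% were higher and 23.6% lower there, with a median of 0.64. After scaling these were 29.4%, 36.0% and −0.11, so the macrophage counts stood near the background. Scaled, the spermatocyte and spermatid counts were again 5 of 5 lower (−3.67 and −10.2), Sertoli 7 of 8 higher (2.20), fibroblast and stroma 5 of 6 higher (2.48), macrophage 4 higher and 4 lower of 9 (0.93), endothelial 4 of 6 higher (1.79) and Leydig 5 of 6 lower (−2.78). The summed spermatid level was 3667 to 5305 FPKM at 36.5 dpp, mostly Tnp1, and 4.02 to 5.35 FPKM at D28, where Prm1, Tnp1 and Acrv1 were listed at 0. The part of these cells in the differences of Pla2g4a, Ptgs1, Ptgs2, Ptges and Alox5 from age-matched testis was not tested.

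As a description of likeness, each gene was set beside 12762 others by Pearson's r of log2(FPKM + 1) over the 29 libraries, which share their groups and so are not independent points. Pla2g2a was most like Htr6 (0.962) and Cfb (0.938), Pla2g4a like Clec14a (0.958) and Clec11a (0.955), Ptgs2 like Gpnmb (0.926) and Pcdh12 (0.919), and Ptgs1 like Hlx (0.936) and Ptger1 (0.925). Ptges was most like Rhox8 (0.946) and Mtor (0.944), Alox15 like Pcdh20 (0.909) and Ccr1 (0.887), Alox5 like Ptcd2 (0.861) and Amt (0.846), and Ptgis like Abcb1a (0.714) and Troap (0.692). Hpgd, with Phpt1 (0.623) and Calb2 (0.605), and Ptgds, with Ak4 (0.525) and Mir336 (0.50), had the weakest likeness to any gene.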

How the data were processed

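The authors aligned single-end 50-base reads to rat genome build rn6 with STAR 2.5.2a after bcl2fastq 2.17.1.14, quantified RefSeq transcripts with StringTie, normalized with Ballgown, and deposited FPKM, which they also call RPKM, for 17322 genes in 30 libraries. Counts were not used here, so depth was only estimated from low values. The third 14.5 dpp column, labelled an outlier, holds 0 for every gene and was left out, leaving 29 libraries. The labels write dpc in titles but give postnatal ages. Fits used limma 3.58.1 in R 4.3.3 on log2(FPKM + 1) with group terms only: 14.5 dpp, D16, D22 and D28 together; D6 with 14.5 dpp; each age-matched pair; 8.5 dpp with all cultured groups; and all testes (F test). The call rule and the filter stand in the report. The procedure was run on simulated data in which large shifts were given to genes of higher level. Genes as low as Ptgs1 and Ptgs2, and differences as small as theirs, were therefore not covered. Tables used Python 3.11.15, pandas 2.3.3, numpy 2.4.6 and scipy 1.17.1, and figures matplotlib 3.10.9. Members and lists, among them 14 lists of cell type markers (79 of 84 genes in the table), were chosen with earlier results of these data known. Named were all 10 members, up to 4 pathway genes a list among those called at least once, the most abundant markers and the 2 genes most like each member. Alternatives were a pseudocount of 0.1, no filter or one at 1 FPKM, scaling, 1 fit of all libraries, another variance prior, no ratio rule, replicate number as a block, and each library left out.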

Additional observations from a re-analysis of the deposited data

Results flagged for a closer look

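The difference between culture and age-matched testis was compared between the first and the last time, as (D28 minus 36.5 dpp) minus (D6 minus 14.5 dpp), with limma in 1 fit of all 29 libraries. A test of this difference between times marked 3 of the 9 genes tested, and Ptgds did not reach the filter. It was 2.97 log2 for Alox15 (SE 0.29, adjusted p = 3.65e-09), 3.03 for Pla2g2a (SE 1.18, adjusted p = 0.0233) and 0.66 for Pla2g4a (SE 0.21, adjusted p = 0.00725). Of all 12482 genes tested, 9885 (79.2%) passed the same test, a larger share than among the 9. The test used the values as deposited and was not run with scaling. Scaling moved the median of all genes by −0.76 at D28 against 36.5 dpp but by 0.02 at D6 against 14.5 dpp, so the 3 values and this share depend on the lack of scaling. Alox15 was at most 0.340 FPKM in every library of D6, D28 and 36.5 dpp, and 3.87 and 10.2 FPKM at 14.5 dpp. It therefore reached the filter only through the 14.5 dpp testis, and Pla2g2a only through D6 and D28, so both genes had to differ between groups to be tested. Pla2g2a was at most 0.0742 FPKM in the testes of both ages, so its value is close to the D28 difference from D6 (3.07). That call was lost in 11 of 15 fits with 1 library left out.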

How the results depend on the processing

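Of 43 calls of the 10 genes in single comparisons, 32 were kept in every alternative set out at the start that tested them, 24 of these being tested in every alternative and 8 not at 1 FPKM; 38 of the 784 settings run on them ended a call and 0 reversed one. Of 96 calls of named pathway genes 73 were kept wherever tested, with 89 of 1809 settings ending a call and 1 reversing one. With adjusted p alone, all genes called numbered 1755, 3860, 4185 and 4733 against 14.5 dpp in order of culture time (898, 1498, 1584 and 1760 with the ratio rule), 8445 at D16 against 24.5 dpp (5082), 5557 and 6886 at D6 and D28 against 8.5 dpp (1861 and 2773) and 3065 at D28 against D6 (682), since that rule drops a criterion. Replicate number as a block left 376 at D6 against 14.5 dpp and brought calls of Pla2g2a at D16 (3.63, adjusted p = 0.0427) and of Ptgis at D16 against 24.5 dpp (−0.43, adjusted p = 0.0403), although testes and explant pools share only a number, not an animal, and pairing is not given by the design. Of the 10 genes, 1 was called at D28 against 36.5 dpp with the filter at 1 FPKM (5 at 0.5), fewer genes being tested. At D28 against D6 there were 0 with no filter, 0 with the trend and robust prior and 3 with adjusted p alone (1 otherwise). In the setting added after seeing the data, with replicate 1 of D22 and D28 left out, 3 were called at D22 against 14.5 dpp (5 otherwise), and Pla2g4a at D28 against D6 was −0.03211. Scaling gave 0.0003174 for Ptges at D22 against 14.5 dpp, −0.47 for Hpgd and −0.04392 for Lta4h at D28 against 36.5 dpp. A pseudocount of 0.1 brought a call of Pla2g2a at D6 against 14.5 dpp (4.28, adjusted p = 0.0226) and at D16 (6.36, 0.00861). With single libraries left out, all genes called ran from 406 to 944 at D6 against 14.5 dpp, and members called from 3 to 5 at D22 against 14.5 dpp, 2 to 4 at D6 against 8.5 dpp and 0 to 1 at D28 against D6. Against 14.5 dpp, Hpgd ran from −0.22 to 0.57 at D6, −0.71 to 0.07474 at D16, −0.31 to 0.48 at D22 and −0.52 to 0.26 at D28, and Ptges from −0.74 to 0.19 at D16, −0.49 to 0.44 at D22 and −0.56 to 0.37 at D28. Ptgis at D6 against 8.5 dpp ran from −0.13 to 0.03883. At D28 against D6, Ptgds ran from −0.13 to 0.43, Ptgs2 from −0.29 to 0.01586 and Pla2g4a from −0.03211 to 0.16. Where 1 testis of 14.5 dpp was left, that lone sample is assumed to vary like the other groups. Beyond the dropped criterion and the smaller number of genes or libraries, the cause was not tested.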
